A study of Mus musculus with 2 samples.

Results

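Genes of the integrated stress response and of serine synthesis were followed through mouse cerebella that carried breast tumors, namely *Atf4*, *Ddit3*, *Trib3*, *Chac1*, *Sesn2*, *Hspa5*, *Asns*, *Phgdh*, *Psat1* and *Shmt2*. They were chosen by name and make up 10 of the 19465 genes counted. The animals were untreated, 5-month-old C57BL/6J mice that had received luciferase-labeled organoids in the cerebellum by stereotactic injection. These organoids, called HP, came from mammary tumors of mice of the same strain that carry a human HER2 transgene with the V777L mutation, driven by an actin promoter behind a Lox-STOP-Lox element, and PIK3CA with the H1047R mutation, and were started by an adenovirus with Cre in the mammary gland. Each replicate was 1 fixed section of 5 µm from 1 mouse, called section 1 and section 2 after the replicate number, and both belong to the same condition. In the labels the organoids of section 1 are named HP-F1 and those of section 2 HP-B6, both with Cre. No section without a tumor was part of the comparison, so each tumor was set against neural tissue of the same section.

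Transcripts were read with Visium CytAssist, in which probe pairs bound to mouse transcripts are transferred to a slide of barcoded spots, and each captured molecule is counted once (a UMI). A spot is a small area that can hold several cells of different types. Since each gene has its own probes, levels are compared between regions and not between genes. Fewer cells of a type and less RNA per cell cannot be told apart in such spots.

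In the integrated stress response, kinases that sense unfolded protein, lack of amino acids, viral RNA or lack of heme phosphorylate the initiation factor eIF2α. Most translation then slows, while the mRNA of the transcription factor ATF4 is translated more. ATF4 raises genes for amino acid import and synthesis, among them those of the serine pathway, and with stress that lasts, genes such as *Ddit3* and *Trib3*. Much of the regulation of ATF4 is at the level of translation, which counts of mRNA do not read.

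ATF4 binds elements that join a C/EBP site to an ATF site, and genes of ER chaperones carry an element bound by ATF6 with NF-Y. These were looked for in the 250 bases before each gene start, in RefSeq promoters of build GRCm38.p6 (mm10), on both strands. All 10 genes matched the table, with 11 entries because *Psat1* has 2. The first motif, TGATGNAA, was found in 3.45% of all 32851 promoters, and among the 10 genes in *Chac1* and *Asns*. The second motif, the ER stress element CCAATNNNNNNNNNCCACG, was found in 0.113% of promoters, and among the 10 genes in *Hspa5*. The other 7 genes held neither set of letters in this window, which says nothing about binding of the factors elsewhere. The 3 promoters that held a motif are shown. In the tissue these genes went 3 ways, with *Hspa5* high in the tumor, *Asns* low there and *Chac1* different between the sections. A link between motif and level was not tested. Capitals mark the motif, and the sequences run 5′ to 3′ in the direction of the gene up to the base before its start.
Chac1 (chr2:119350992-119351241, plus strand): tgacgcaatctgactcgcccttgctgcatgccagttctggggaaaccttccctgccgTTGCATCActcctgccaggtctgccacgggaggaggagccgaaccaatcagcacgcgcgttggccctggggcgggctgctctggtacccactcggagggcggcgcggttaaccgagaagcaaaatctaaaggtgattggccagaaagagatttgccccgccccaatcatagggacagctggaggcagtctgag
Asns (chr6:7693210-7693459, minus strand): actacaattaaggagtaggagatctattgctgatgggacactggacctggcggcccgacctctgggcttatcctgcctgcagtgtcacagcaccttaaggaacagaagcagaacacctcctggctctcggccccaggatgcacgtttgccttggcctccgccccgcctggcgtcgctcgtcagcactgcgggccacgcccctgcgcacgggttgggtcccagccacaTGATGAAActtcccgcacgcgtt
Hspa5 (chr2:34771840-34772089, plus strand): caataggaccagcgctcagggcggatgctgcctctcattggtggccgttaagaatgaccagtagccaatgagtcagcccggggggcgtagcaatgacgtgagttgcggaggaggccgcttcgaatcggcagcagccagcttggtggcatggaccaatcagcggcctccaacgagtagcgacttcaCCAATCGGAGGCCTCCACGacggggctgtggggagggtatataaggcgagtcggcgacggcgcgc
In *Chac1* the motif lay 193 to 186 bases before the start, as its reverse complement TTGCATCA. In *Asns* it lay 23 to 16 bases before the start as TGATGAAA, and in *Hspa5* 65 to 47 bases before the start.

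Spots were split into regions by a score that set genes of the lesion against genes of neurons and myelin, none of them among the 10. The lesion was the largest connected patch of lesion-like spots, and the edge was the zone within 2 array steps of the border, on its tumor side and on its neural side. Section 1 had 743 spots in the tumor, 118 on the tumor side of the edge, 124 on the neural side and 2330 in neural tissue. Section 2 had 853, 121, 116 and 2719 spots. The sections held 63986887 and 71878333 UMIs. A tumor spot held far more RNA than a spot of neural tissue, with medians of 54910 and 40203 UMIs against 7485 and 9662. Levels are therefore given as counts per 1000000 UMIs after TMM scaling (CPM), that is, relative to the other transcripts of a region. Values by distance from the border or by the leading marker list are CPM without TMM factors, and serve as a description with no test.

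**Figure D1:**
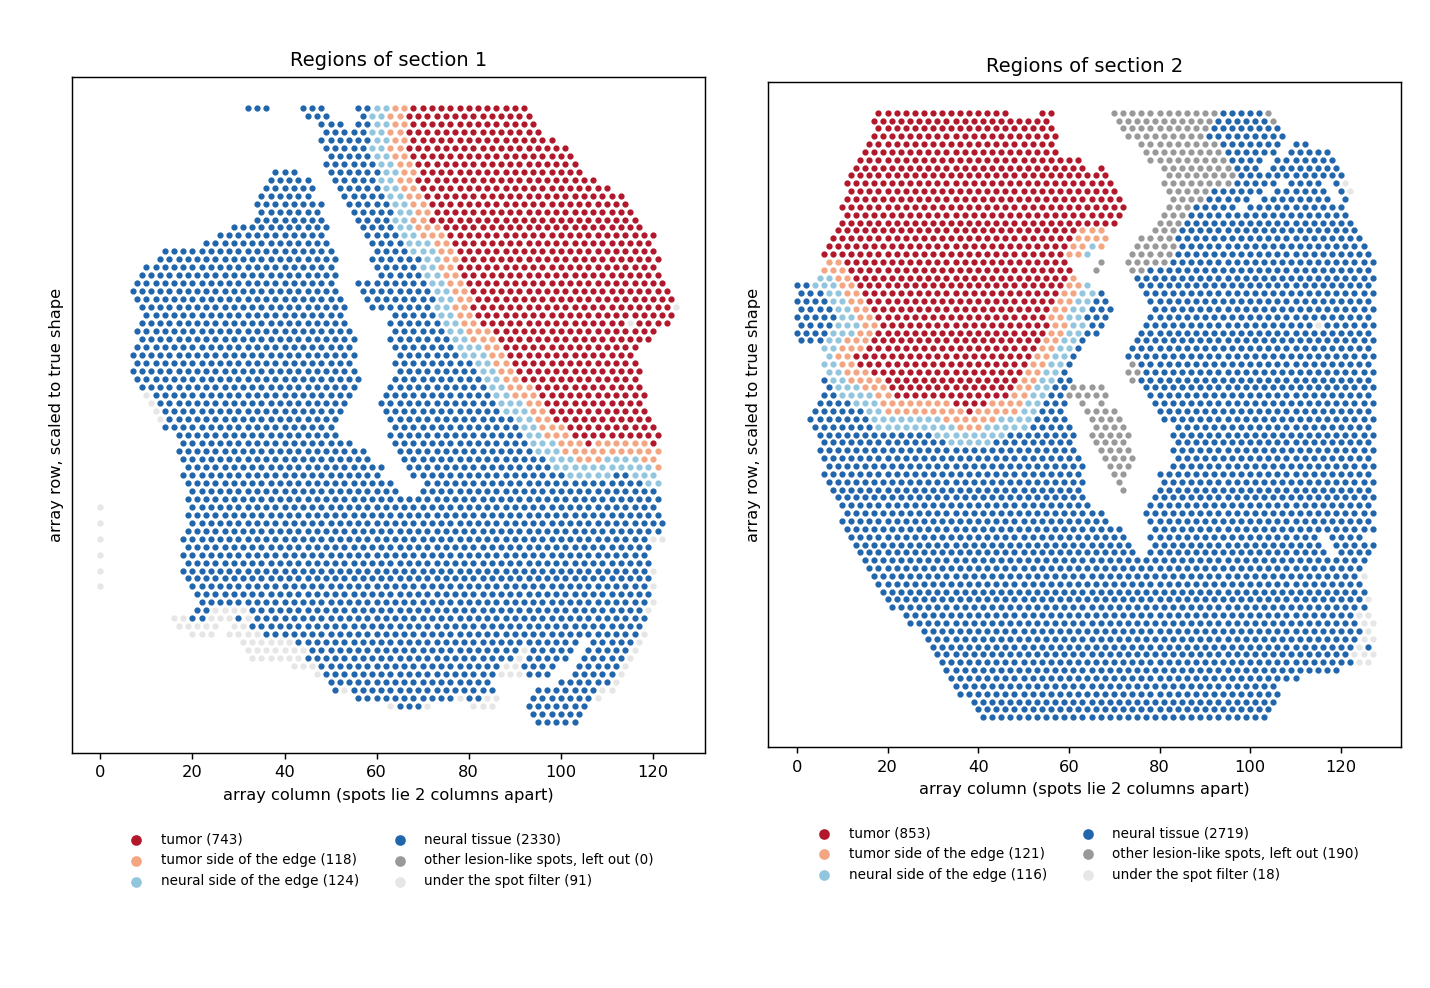
Spots of sections 1 and 2 at their places on the array, colored by region, with the number of spots in brackets. The lesion is a single patch in each section, with 743 and 853 spots in the tumor, and the 190 gray spots of section 2 were lesion-like but lay apart from it and were left out.

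The lesions of the 2 sections were of different makeup. Epithelial markers (11 genes, among them *Epcam* and keratins) summed to 149 CPM in the tumor of section 1 and to 12515 CPM in that of section 2, against 43.8 and 206 CPM in neural tissue. Fibroblast markers (10 genes) had the opposite order, with 64954 CPM in the tumor of section 1 and 963 CPM in that of section 2. Most of the sum in section 2 came from keratins, *Epcam* and claudins, which were low in the lesion of section 1, with *Epcam* at 7.22 CPM there against 2134 in section 2 and *Krt7* at 3.18 against 4562. Other genes of the list did stand out in that lesion, with *Gata3* at 59.5 CPM against 9.5 in neural tissue, *Esr1* at 35.8 against 8.14 and *Krt8* at 25.7 against 4.50, and these 3 genes were called as higher in tumor over both sections. *Krt19*, *Cldn4*, *Cldn7*, *Elf3* and *Esrp1* were at or below their level in neural tissue in section 1. There *Krt19* was 0.982 CPM in the tumor against 1.45, *Cldn7* 2.05 against 3.32 and *Esrp1* 1.96 against 2.64. The epithelial markers of section 1 were thus mixed, and which cells carried *Gata3*, *Esr1* and *Krt8* was not tested. Tumor is used below as the name of the region. Keratin, *Epcam* and collagen genes were among those that drew the lesion. No gene of either list was at 0 in any region. Each value below is given for both sections, and with 1 mouse per section a difference between sections was not tested. Purkinje cell markers (7 genes, 3 of which also served to draw the regions) stood at 3050 and 5004 CPM in neural tissue and at 161 and 160 CPM in the tumor.

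The spots of each region of each section were added up to 8 libraries, and 19067 genes were tested in edgeR (quasi-likelihood, section as a blocking factor). Below, called means a p under 0.05 after Benjamini-Hochberg adjustment over all of them. Between tumor and neural tissue, 6 of the 10 genes were called. *Hspa5*, *Shmt2*, *Sesn2* and *Atf4* were higher in the tumor, and *Psat1* and *Asns* were lower. Of all genes tested 35.6% were called in this comparison, 18.8% as higher and 16.8% as lower. The median log2 fold change was 0.36 over the 10 genes and -0.09 over all genes. Between edge and neural tissue 5 of the 10 genes were called, where 18.9% of all genes were: *Hspa5*, *Shmt2*, *Sesn2* and *Ddit3* were higher at the edge (8.13% of all genes were) and *Asns* was lower (10.7% were). Between tumor and edge 0 of the 10 were called by edgeR, against 13.3% of all genes (6.24% higher and 7.02% lower). There 3 of the 10 had an unadjusted p under 0.05, as did 6170 of all 19067 genes. DESeq2 called *Ddit3* and *Psat1*, both lower in the tumor, and 29.3% of all genes. Between the sides of the edge edgeR called 0 of 19067 genes (0%), with 1926 at an unadjusted p under 0.05, of which 0 were among the 10, and DESeq2 called 241 genes there and again 0 of the 10.

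**Figure D2:**
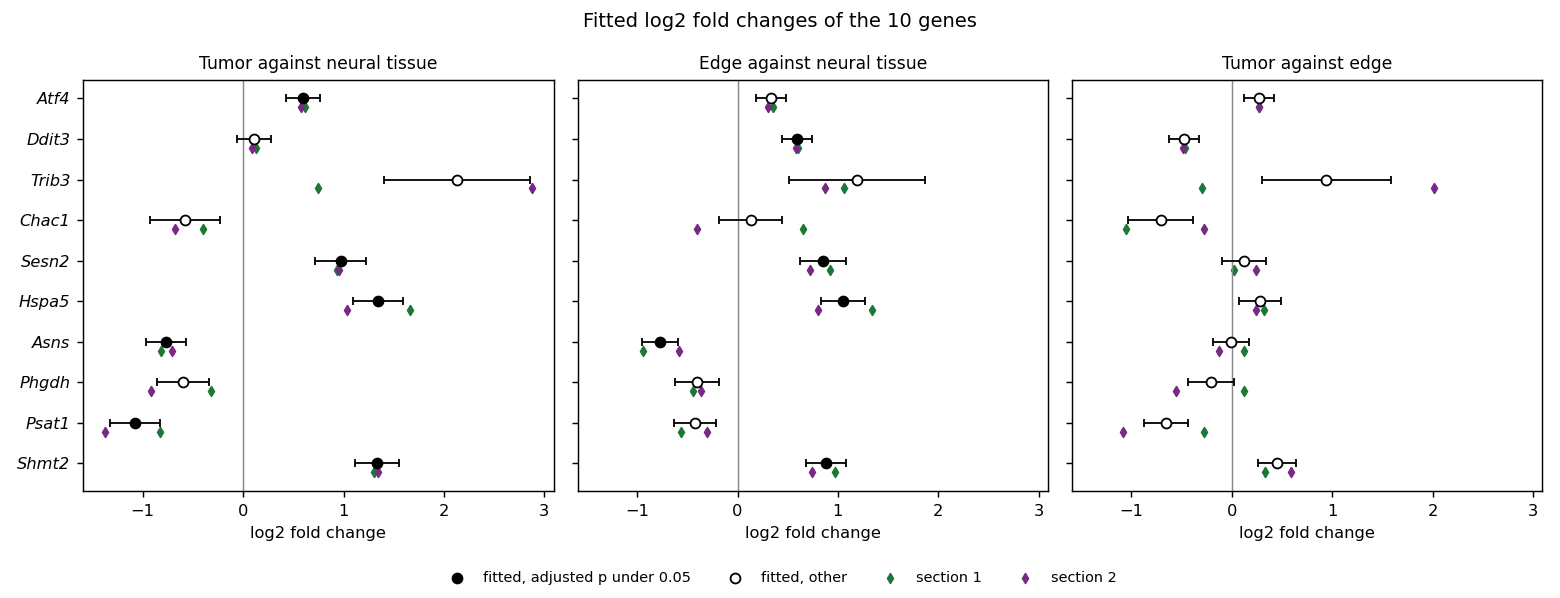
Log2 fold changes of the 10 genes in 3 comparisons, with the fitted value and its standard error (circles and bars, filled where the adjusted p is under 0.05) and the change within each section (diamonds). *Hspa5* and *Shmt2* stand well to the right of 0 in both comparisons with neural tissue, *Asns* to the left, and *Trib3* has the widest error, with sections at 0.75 and 2.88 for tumor against neural tissue.

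*Atf4*, the transcription factor at the center of the response, was highest in the tumor and lowest in neural tissue. In section 1 its level was 230 CPM in the tumor, 204 on the tumor side of the edge, 177 on the neural side and 149 in neural tissue. In section 2 these levels were 263, 246, 192 and 176 CPM. The order of the regions was the same in both sections, and the tumors did not overlap with neural tissue. On the log2 scale tumor exceeded neural tissue by 0.60 (standard error 0.17, edgeR's adjusted p = 0.0371), a rise by 1.52-fold, with 0.62 in section 1 and 0.58 in section 2. The edge did not differ from neural tissue at the threshold (0.33, standard error 0.15, adjusted p = 0.205). Of 10 other settings, 5 kept the call of tumor against neural tissue, and adjusted p ranged from 0.00212 to 0.255.

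*Ddit3*, which encodes CHOP, a factor that promotes cell death when stress is not resolved, peaked at the border. Its levels were 49.4, 70.6, 66.6 and 45.1 CPM in section 1, from the tumor over the tumor side and the neural side of the edge to neural tissue. In section 2 they were 57.7, 78.7, 83.6 and 54.2 CPM. Both sides of the edge stood above both tumor and neural tissue in each section. The edge exceeded neural tissue by 0.59 on the log2 scale (standard error 0.15, adjusted p = 0.0404, edgeR), 1.51-fold, with 0.60 and 0.58 in the sections, and 4 of 10 other settings lost the call (adjusted p from 0.00234 to 0.246). The tumor itself was close to neural tissue, with 0.11 (standard error 0.17, adjusted p = 0.625), and a value of -0.24 with library size as the only scaling. For tumor against edge the change was -0.48 (standard error 0.15, adjusted p = 0.0808), and 4 of 10 other settings called it.

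By distance, *Ddit3* was highest within 2 steps of the border in both sections. In section 1 it was 33.2 CPM in spots more than 12 steps inside the lesion, 56.6 at 3 to 5 steps, 72.4 at 1 or 2 steps, 73.9 at the same distance on the neural side, and 46.4 at 9 to 12 steps into neural tissue. In section 2 the same zones had 41.7, 66.9, 77.5, 90.8 and 51.6 CPM. Beyond 20 steps it was 48.4 CPM in section 1 and 57.7 in section 2, so the level in neural tissue did not keep falling with distance. Each of these values rests on 69 UMIs or more. The files hold a second row under the symbol *Ddit3* (ENSMUSG00000116429), while the values above are those of the row ENSMUSG00000025408. The second row had 39.8, 70.6, 61.8 and 38.8 CPM in section 1 and 38.3, 54.0, 47.0 and 38.7 CPM in section 2. It also peaked at the edge, and its change of edge against neural tissue was 0.58 (standard error 0.18, adjusted p = 0.0707, edgeR), so that row did not pass the threshold. The sum of 10 macrophage markers peaked in the same zone. It was 12469, 17982, 13752 and 1750 CPM across the regions of section 1 and 6343, 23335, 10844 and 2279 CPM in section 2. *Spp1* was the largest part of it, with 9662 and 13398 CPM on the tumor side of the edge. In section 1 *Adgre1*, *Csf1r*, *Mrc1*, *C1qa*, *C1qb* and *Aif1* were highest in the tumor. There *Csf1r* was 460 CPM, against 226 and 242 on the sides of the edge. In section 2 all 10 markers were highest on a side of the edge. The part of macrophages in the level of *Ddit3* was not tested. Over the 853 tumor spots of section 2, Pearson's r of *Ddit3* with the macrophage list was 0.28, and over the 743 of section 1 it was 0.00.

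**Figure D3:**
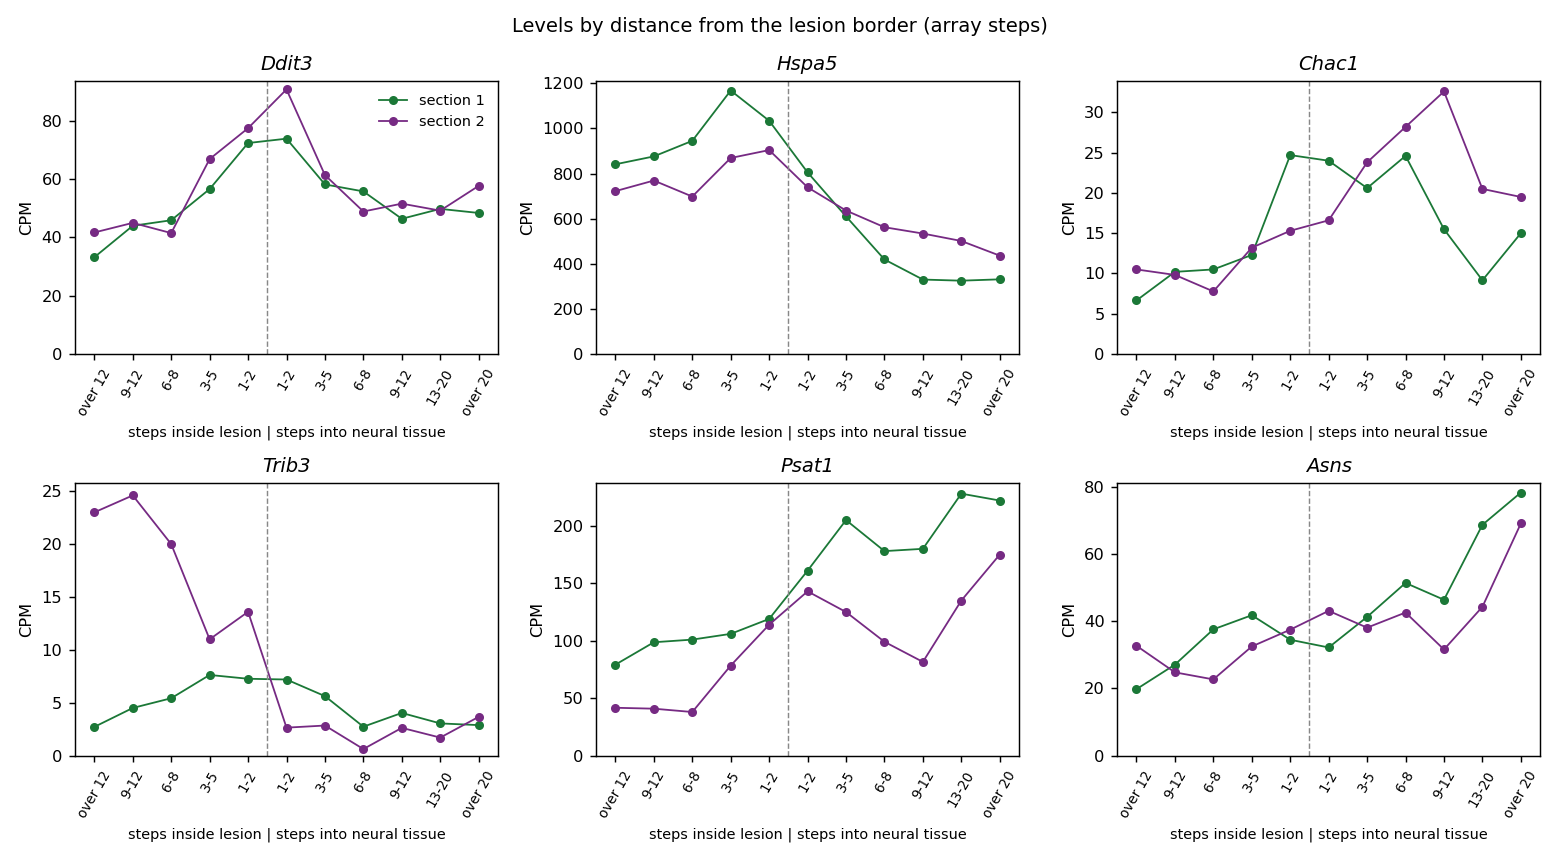
CPM of 6 genes by distance from the border, in array steps, for section 1 (green) and section 2 (purple), with the lesion left of the dashed line and neural tissue right of it. *Ddit3* peaks within 2 steps of the border in both sections, *Hspa5* is lower farther into neural tissue, and *Trib3* is high only in the lesion of section 2, where it reaches 24.6 CPM.

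*Trib3*, a pseudokinase that ATF4 and CHOP induce and that dampens AKT signaling, differed between the tumors more than any other of the 10 genes. It stood at 5.40 CPM in the tumor of section 1 (187 UMIs) and at 25.6 CPM in that of section 2 (705 UMIs), and at 3.0 and 3.04 CPM in neural tissue. The edge of section 1 had 7.10 CPM on the tumor side and 6.48 on the neural side, and that of section 2 had 13.8 and 2.44 CPM, the last from 4 UMIs (95% exact Poisson interval 0.665 to 6.25 CPM, which covers counting error only). Both tumors lay above neural tissue, by a log2 change of 0.75 in section 1 and of 2.88 in section 2. With this spread the fitted change of 2.13 had a standard error of 0.73 and did not pass (adjusted p = 0.0646, edgeR), while DESeq2 called it and the regions from clustering did too (adjusted p from 0.00879 to 0.127 over 10 settings).

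Inside the lesion of section 2, *Trib3* was 23.0 CPM more than 12 steps from the border, 24.6 at 9 to 12 steps, 20.0 at 6 to 8 steps and 11 at 3 to 5 steps. In section 1 the interior was the lowest part of the lesion, with 2.72 CPM more than 12 steps in and 7.63 at 3 to 5 steps. The profile in the lesion was thus opposite in the 2 sections. The hypoxia list held 9 genes, among them *Vegfa* and *Slc2a1*. It summed to 634 CPM in the tumor of section 1 and 2041 CPM in that of section 2. Neural tissue had 850 and 738 CPM. In section 1 the edge was highest, with 1664 CPM on its tumor side and 1321 on its neural side. In section 2 both sides of the edge lay between tumor and neural tissue. *Slc2a1* was 390 CPM in neural tissue of section 1 and 194 in its tumor. *Car9* (14.2 against 6.64 CPM), *Egln3* (63.5 against 31.1) and *Pgk1* (203 against 179) were higher in that tumor than in neural tissue. The other genes of the list were lower there. Over tumor spots, Pearson's r of *Trib3* with that list was 0.35 in section 2 and 0.10 in section 1. With the epithelial list r was 0.18 and 0.00, and with the macrophage list -0.28 and 0.08. The part of hypoxia or of epithelial cells in the level of *Trib3* was not tested.

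*Chac1* breaks down glutathione and is induced through ATF4, and its pattern was not shared by the sections. Levels were 10.8, 24.1, 21.6 and 14.4 CPM in section 1, from the tumor outward, with 374, 68, 50 and 317 UMIs. In section 2 they were 12.6, 15.6, 15.3 and 20.5 CPM, with 347, 36, 25 and 634 UMIs. The edge was the highest region in section 1, whereas neural tissue was in section 2. None of the 4 comparisons passed: tumor against neural tissue gave -0.58 (standard error 0.35, adjusted p = 0.229, edgeR), and edge against neural tissue gave 0.13 (standard error 0.31, adjusted p = 0.847), with 0.65 in section 1 and -0.40 in section 2. In both sections the tumor was below neural tissue. Set against neural tissue within 3 to 10 steps of the lesion, in place of all neural tissue, the tumor was lower by a called margin, -1.12 (adjusted p = 0.0439), the lowest adjusted p over 10 settings, whose highest was 0.272.

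That nearby tissue was where *Chac1* stood high in section 2, at 23.8 CPM at 3 to 5 steps, 28.2 at 6 to 8 steps and 32.6 at 9 to 12 steps (50, 45 and 62 UMIs), and 19.5 CPM farther than 20 steps away. In section 1 it was 24.0 CPM at 1 or 2 steps, 24.6 at 6 to 8 steps, 9.15 at 13 to 20 steps and 15.0 beyond. Spots of neural tissue were also sorted by which of 4 marker lists stood highest in them. *Chac1* was highest where granule neuron markers led, with 23.6 CPM in section 1 and 29.1 in section 2, and lowest where oligodendrocyte markers led, with 11.6 and 15.7 CPM. Distance from the lesion and the layers of the cerebellum were not separated here.

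*Sesn2* encodes sestrin 2, which restrains mTORC1 when leucine is short. It was 27.9, 33.3, 22.5 and 14.2 CPM in section 1 and 33.2, 26.8, 29.3 and 16.9 CPM in section 2, from the tumor outward. Neural tissue was the lowest region in both sections, and the 3 other regions had no common order. Tumor exceeded neural tissue by 0.97 on the log2 scale (standard error 0.25, adjusted p = 0.0250, edgeR), 1.96-fold, with 0.94 and 0.95 in the sections. Edge exceeded neural tissue by 0.85 (standard error 0.23, adjusted p = 0.0476), a call near the threshold that 5 of 10 other settings lost, against 3 of 10 for the tumor.

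*Hspa5* encodes BiP, the main chaperone of the ER and the sensor-binding protein that is released when unfolded proteins build up. It was 1069, 1009, 725 and 337 CPM in section 1 and 932, 917, 680 and 455 CPM in section 2, from the tumor outward. The regions kept 1 order in both sections, and the neural side of the edge was above neural tissue too. The log2 difference of tumor over neural tissue was 1.34 (standard error 0.25, adjusted p = 0.00755, edgeR), 2.53-fold, with 1.66 in section 1 and 1.03 in section 2, and all 10 other settings called it. Edge exceeded neural tissue by 1.05 (standard error 0.22, adjusted p = 0.0225), 2.08-fold. That call was lost with regions from clustering (0.90, adjusted p = 0.0823) and with nearby neural tissue as the reference (0.76, adjusted p = 0.0918).

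Along the distance from the border, *Hspa5* was highest at 3 to 5 steps inside the lesion of section 1, with 1168 CPM, and at 1 or 2 steps inside that of section 2, with 904 CPM. More than 12 steps inside it was 841 and 722 CPM. In neural tissue it was 805 and 739 CPM at 1 or 2 steps and 331 and 436 CPM beyond 20 steps. Plasma cells, which make much ER chaperone, were looked at through 9 markers. Their sum was 1724 and 1162 CPM in the tumors and 150 and 142 CPM in neural tissue. In the tumor of section 2 the sum was mostly *Sdc1* (967 CPM, against 244 in section 1) and *Xbp1* (131 CPM, against 159). *Igkc* was 733 CPM in the tumor of section 1 and 27.7 in that of section 2, *Igha* 241 and 19.6, and *Jchain* 72.0 and 4.80. The sum is thus a weak measure of plasma cells in section 2. Over tumor spots, r of *Hspa5* with the plasma cell list was -0.17 in section 1 and 0.00 in section 2. With the macrophage list it was 0.15 and 0.24. The part of these cells in the level of *Hspa5* was not tested. Among spots of neural tissue, *Hspa5* was highest where markers of astrocytes and Bergmann glia led, with 479 and 592 CPM, against 330 to 365 and 405 to 470 CPM in the other 3 sorts of spots.

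**Figure D4:**
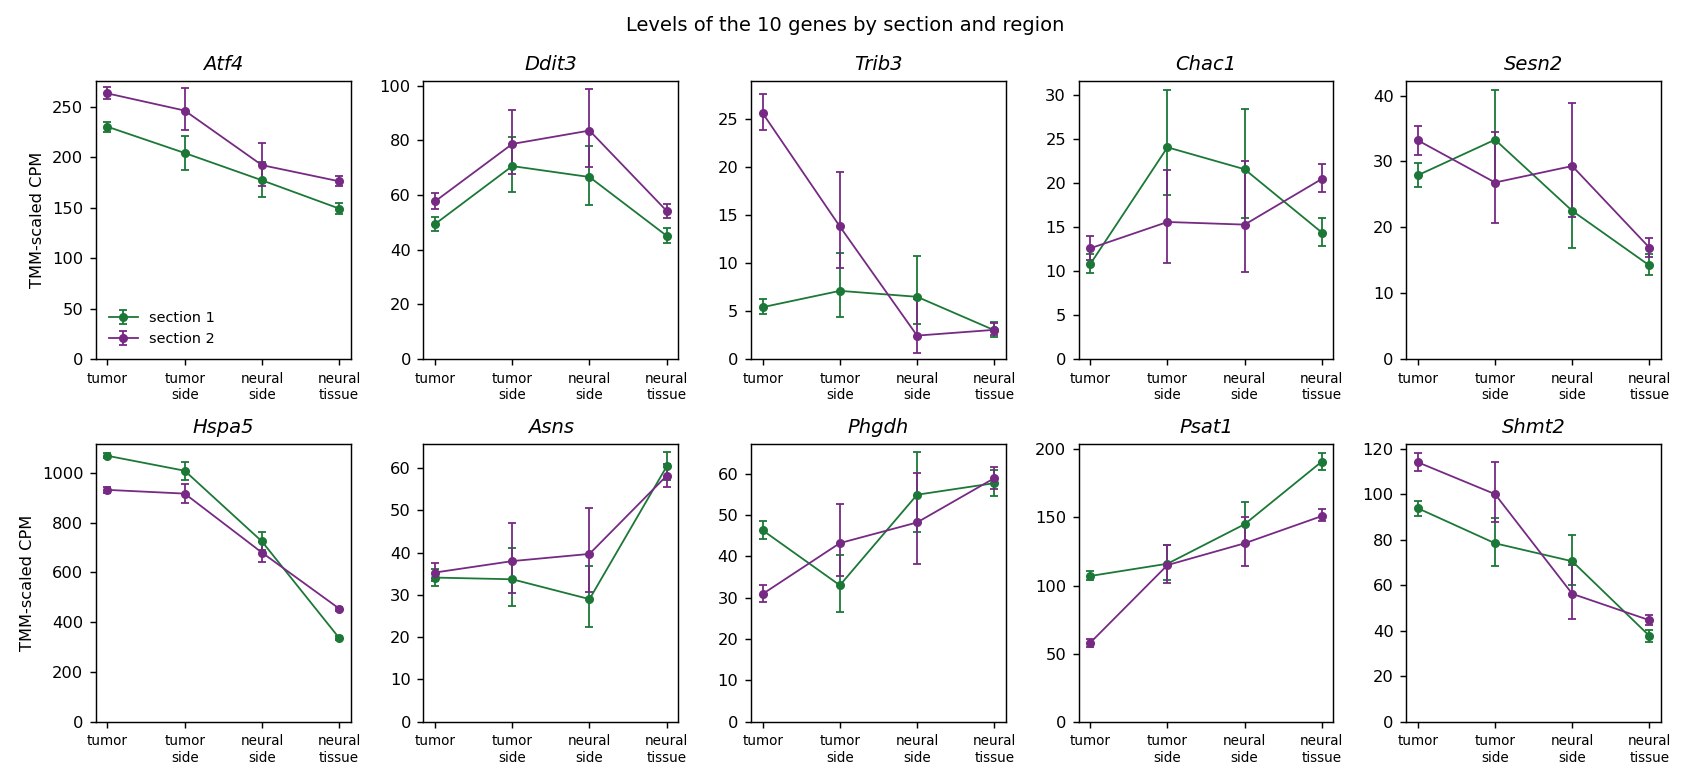
TMM-scaled CPM of the 10 genes in the 4 regions of section 1 (green) and section 2 (purple), each axis from 0, with 95% exact Poisson intervals, which cover counting error only. *Hspa5*, *Shmt2* and *Atf4* decline from the tumor to neural tissue in both sections, *Psat1* and *Asns* stand highest in neural tissue, and *Ddit3* peaks at the edge.

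*Asns* makes asparagine from aspartate and glutamine and is a well-known target of ATF4. It was lower in the lesion. Levels were 34.1, 33.7, 29.0 and 60.4 CPM in section 1 and 35.3, 38.0, 39.7 and 58.2 CPM in section 2, from the tumor outward. Tumor and edge lay close to each other (tumor against edge -0.01, standard error 0.18), and neural tissue stood apart above them in both sections. Tumor fell below neural tissue by a log2 change of -0.77 (standard error 0.20, adjusted p = 0.0267, edgeR), 1.71-fold, and edge by -0.77 (standard error 0.18, adjusted p = 0.0286). Against neural tissue within 3 to 10 steps, both calls were lost, with -0.25 for tumor (adjusted p = 0.421) and -0.08 for edge (adjusted p = 0.867). Across 10 settings adjusted p ranged from 0.00599 to 0.421 for tumor and from 0.00825 to 0.867 for edge.

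In neural tissue *Asns* was highest far from the lesion in both sections, though distance and the layers of the cerebellum were not separated. By leading marker list *Asns* was 76.8 and 69.2 CPM for oligodendrocytes and 69.4 and 69.1 for Purkinje cells. For granule neurons it was 60.2 and 45.8 CPM, and for astrocytes and Bergmann glia 53.6 and 56.2. At 3 to 5 steps into neural tissue it was 41.3 CPM in section 1 and 38.1 in section 2, at 9 to 12 steps 46.4 and 31.6, at 13 to 20 steps 68.7 and 44.3, and beyond 20 steps 78.3 and 69.1 CPM. In raw UMIs per spot *Asns* was not lower in the tumor, with 1.59 and 1.14 UMIs against 0.570 and 0.661 in neural tissue, and tumor spots held more UMIs in all. The lower CPM is a smaller share of the transcripts of a spot, and on this count of UMIs per spot the direction was turned.

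*Phgdh*, *Psat1* and *Shmt2* mark 3 steps of serine and glycine metabolism, and they did not move together. *Phgdh* carries out the step that commits a glycolytic intermediate to serine, *Psat1* the transamination after it, and *Shmt2* turns serine into glycine in mitochondria and feeds folate-bound carbon units. *Shmt2* was higher in the tumor, *Psat1* lower, and *Phgdh* was not called. *Psph*, the enzyme between *Psat1* and *Shmt2*, had 0.24 (standard error 0.21, adjusted p = 0.402, edgeR) for tumor against neural tissue, with 30.7 and 45.3 CPM in the tumors and 29.9 and 33.7 CPM in neural tissue.

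*Shmt2* was 93.8, 78.4, 70.5 and 37.7 CPM in section 1 and 114, 100, 56.2 and 44.6 CPM in section 2, from the tumor outward. The order was the same in both, with neural tissue lowest. Tumor against neural tissue gave 1.33 (standard error 0.22, adjusted p = 0.00499, edgeR), 2.52-fold, with 1.30 and 1.34 in the sections, and all 10 other settings called it. Edge against neural tissue gave 0.88 (standard error 0.20, adjusted p = 0.0277), 1.84-fold, a call lost only with nearby neural tissue as the reference (0.66, adjusted p = 0.0815). The deep interior differed by section: more than 12 steps in, *Shmt2* was 54.4 CPM in section 1 and 89.6 CPM in section 2. Neural tissue of section 1 had 78.2 CPM at 1 or 2 steps, 57.8 at 3 to 5 and 47.1 at 6 to 8. Farther out it had 50.5 CPM at 9 to 12 steps, 39.2 at 13 to 20 and 37.3 at 21 or more. These values leave out the TMM factors, which were 0.878 for the tumor and 1.12 for neural tissue of section 1. No match between lesion and neural zones is read from them. Proliferation genes (9 genes) summed to 732 and 692 CPM in the tumors and 82.8 and 92.2 CPM in neural tissue, and over tumor spots r of *Shmt2* with them was 0.25 and 0.10. Their part in the level of *Shmt2* was not tested.

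*Psat1* stood lowest in the tumor, at 107, 116, 145 and 191 CPM in section 1 and at 58.0, 115, 131 and 151 CPM in section 2, from the tumor outward. Its level rose from each of these regions to the next in both sections. By distance the rise was not steady within neural tissue. In section 2 *Psat1* was 143 CPM at 1 or 2 steps, 81.6 at 9 to 12 steps and 175 in the farthest zone. In section 1 these zones had 161, 180 and 222 CPM, with 205 at 3 to 5 steps. Tumor was below neural tissue by a log2 change of -1.08 (standard error 0.25, adjusted p = 0.0169, edgeR), 2.12-fold, with -0.83 and -1.38 in the sections. Edge against neural tissue did not pass (-0.42, standard error 0.21, adjusted p = 0.240). With nearby neural tissue as the reference the tumor was at -0.83 (adjusted p = 0.0763), the 1 of 10 settings that lost the call. In raw UMIs per spot the tumor was higher for *Psat1*, as it was for all 10 genes, with 4.99 and 1.87 UMIs against 1.80 and 1.72.

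In both sections *Psat1* was highest where myelin genes were. Among spots of neural tissue it was 257 and 247 CPM where oligodendrocyte markers led, against 148 to 216 CPM in the other sorts of section 1 and 104 to 129 CPM in those of section 2. Pearson's r of *Psat1* with the oligodendrocyte list was 0.37 over 2330 spots of neural tissue in section 1 and 0.42 over 2719 in section 2. Oligodendrocyte markers (8 genes) summed to 465 and 916 CPM in the tumors and 13745 and 10736 CPM in neural tissue, so they were lower in the same region, and their part in the change of *Psat1* was not tested. Over the 853 tumor spots of section 2, *Psat1* had r of 0.40 with macrophage, 0.37 with oligodendrocyte and -0.38 with epithelial markers, and over the 743 of section 1 these were 0.10, 0.20 and -0.06. Inside the lesion it was 79.2 CPM more than 12 steps from the border and 119 at 1 or 2 steps in section 1, and 41.7 and 114 CPM in section 2.

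*Phgdh* was 46.3, 33.0, 54.9 and 57.7 CPM in section 1 and 30.9, 43.2, 48.2 and 58.9 CPM in section 2, from the tumor outward. Neural tissue was highest in both, but the lowest region was the tumor side of the edge in section 1 and the tumor in section 2. Tumor against neural tissue gave -0.60 (standard error 0.26, adjusted p = 0.114, edgeR), with -0.32 and -0.92 in the sections, and 1 of 10 other settings, library size as the only scaling, called it. Within neural tissue *Phgdh* was highest where granule neuron markers led, with 81.1 and 78.5 CPM, against 54.6 to 64.3 and 48.2 to 59.1 CPM elsewhere. Thus *Phgdh* and *Psat1*, neighbors in the pathway, stood highest in different sorts of spots.

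**Figure D5:**
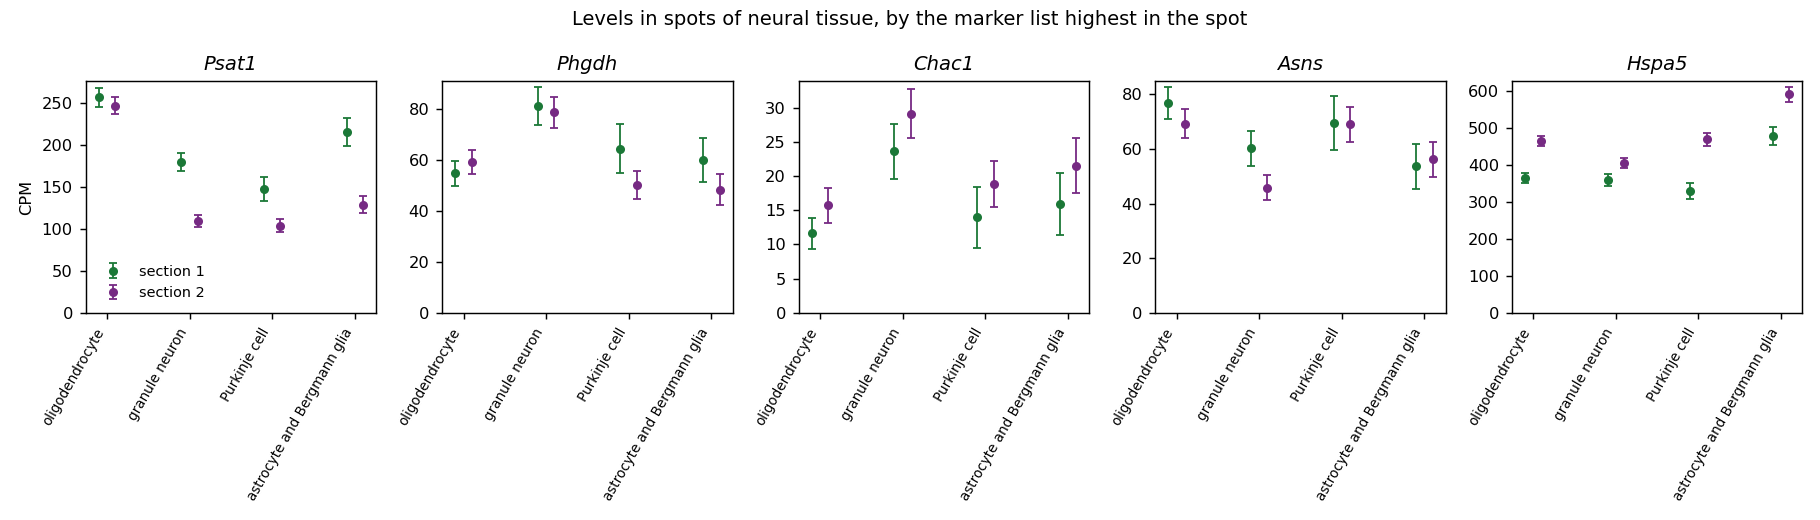
CPM of 5 genes in spots of neural tissue, sorted by which of 4 marker lists stood highest, for section 1 (green) and section 2 (purple), with bars of the 95% counting interval (normal approximation). *Psat1* is highest in oligodendrocyte-led spots, at 257 and 247 CPM, and *Phgdh* and *Chac1* in granule neuron-led spots.

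The rest of the pathway was read from 6 lists of other genes, each set against neural tissue, where all genes tested had a median change of -0.09 (log2) in the tumor and -0.07 at the edge. The counts of each list stand beside 18.8% of all genes called as higher and 16.8% as lower in the tumor, and 8.13% and 10.7% at the edge. Of 11 sensors and feedback genes, 5 were higher and 1 lower in tumor than in neural tissue (median 0.40), and at the edge 1 was higher and 1 lower. *Eif2ak2*, the kinase PKR that senses double-stranded RNA, rose by 1.77 (standard error 0.28, adjusted p = 0.00387, edgeR), from 27.7 and 53.1 CPM to 121 and 149. *Eif2s1*, which encodes eIF2α itself, rose by 1.0 (standard error 0.30, adjusted p = 0.0411). *Impact*, an inhibitor of the amino acid sensor GCN2 that neurons express strongly, fell by 2.34 on the log2 scale (adjusted p = 9.0e-04), from 383 and 325 CPM to 64.3 and 76.6. The others called as higher were *Eif2ak3*, which encodes PERK, *Oma1* and *Ppp1r15b*, named after their values were seen.

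Of 12 transcription factors and stress genes linked to ATF4, 5 were higher and 2 lower in the tumor, and 8 were higher and 0 lower at the edge, both against neural tissue, with medians of 1.04 and 1.06. *Nupr1*, a stress-induced chromatin protein, rose by 4.11 in the tumor (standard error 0.33, adjusted p = 4.4e-04, edgeR), from 16.2 and 29.3 to 297 and 486 CPM. *Cebpb*, a partner of ATF4 that macrophages also express, rose by 2.16 (standard error 0.33, adjusted p = 0.00348). *Vldlr*, a lipoprotein receptor, fell by 2.24 (adjusted p = 0.00995). *Atf3* and *Gdf15*, chosen after their values were seen, had the edge pattern of *Ddit3* in section 1: *Atf3* was 29.6, 135, 112 and 13.4 CPM and *Gdf15*, a stress cytokine, 9.74, 58.5, 51.4 and 5.77 CPM from the tumor outward. In section 2 *Atf3* was 102, 128, 65.3 and 37.2 CPM and *Gdf15* 18.8, 37.2, 17.1 and 4.63 CPM. Edge against neural tissue gave 2.29 for *Atf3* (standard error 0.61, adjusted p = 0.0490) and 2.93 for *Gdf15* (standard error 0.54, adjusted p = 0.0156).

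Among 14 genes of amino acid transport and synthesis, 4 were higher and 3 lower in the tumor (median 0.31), and 3 were higher and 3 lower at the edge (median -0.17). *Pycr1*, which makes proline, rose by 3.27 (standard error 0.26, adjusted p = 4.4e-04, edgeR), from 4.18 and 3.30 to 39.2 and 32.9 CPM. *Cbs*, of the route from homocysteine to cysteine, fell by 3.62 (adjusted p = 7.7e-04), and *Got1*, the cytosolic aspartate aminotransferase, by 2.87 (adjusted p = 0.00272). Of 13 aminoacyl-tRNA synthetases, which charge tRNAs and include many targets of ATF4, 5 were higher and 0 lower in the tumor (median 0.47). At the edge edgeR called 0 of them (median -0.02). There 4 had an unadjusted p under 0.05, *Tars* higher (0.45) and *Wars* (-0.49), *Nars* (-0.42) and *Gars* (-0.38) lower. Such a p was found for 5982 of all 19067 genes, and DESeq2 called 1 of the 13 and 32.1% of all genes. In the tumor *Vars* rose by 1.52 (standard error 0.37, adjusted p = 0.0206, edgeR), *Tars* by 1.01 (adjusted p = 0.00603) and *Eprs* by 0.90 (adjusted p = 0.0108). *Vars* stood at 128 CPM in the tumor of section 1 and 341 CPM in that of section 2, against 72.6 and 73.4 CPM in neural tissue.

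Of 16 other genes of serine, glycine and folate metabolism in the files, 4 were higher and 4 lower in the tumor, with a median log2 fold change of 0.20, and at the edge 1 was higher and 1 lower. The 4 and 4 of 16 lie near the 18.8% and 16.8% of all genes that were called as higher and lower, and nothing is read from them about the list. *Shmt1*, the cytosolic partner of *Shmt2*, rose by 2.47 (standard error 0.68, adjusted p = 0.0331, edgeR), to 21.7 CPM in section 1 and 81.6 CPM in section 2 from 8.14 and 6.41. *Tyms*, which uses folate to make thymidylate in dividing cells, rose by 2.30 (standard error 0.29, adjusted p = 0.00187). *Mthfd2*, a mitochondrial folate enzyme, rose by 1.11 (standard error 0.33, adjusted p = 0.0405), with 85.8 and 49.7 CPM in the tumors and 28.8 and 34.0 in neural tissue. *Sdsl*, a gene of serine breakdown, fell by 2.05 (adjusted p = 0.00278). Also lower were *Gldc* and *Amt*, which cleave glycine, and *Aldh1l1*, an astrocyte marker.

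Of 22 other ER chaperones and genes of the unfolded protein response, 12 were higher and 1 lower in tumor than in neural tissue, with a median log2 fold change of 1.05, and 11 were higher and 1 lower at the edge, with a median of 0.83. *Edem1*, which sends misfolded glycoproteins to degradation, rose by 2.00 (standard error 0.27, adjusted p = 0.00241, edgeR). The disulfide isomerases *Pdia4* and *Pdia3* rose by 1.78 (standard error 0.21, adjusted p = 0.00148) and 1.73 (standard error 0.24, adjusted p = 0.00245), with *Pdia3* at 840 and 657 CPM in the tumors and 202 and 248 CPM in neural tissue. The gene that fell was *Crebrf*, a negative regulator of this response. Between tumor and edge 1 of the 22 genes was called, as higher, where 6.24% of all genes were higher and 7.02% lower. In that comparison edgeR called 0 of the 11 sensors and feedback genes, and DESeq2 called 2, where it called 29.3% of all genes. Of the 12 genes linked to ATF4, 1 was higher and 2 lower in the tumor. Of the 14 genes of amino acid transport and synthesis, 4 were higher and 1 lower. The 13 synthetases had 2 higher and 0 lower, and the 16 genes of serine, glycine and folate metabolism 0 and 2.

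The 10 genes varied with little relation to each other from spot to spot. Across 45 pairs of genes, Pearson's r ranged from -0.07 to 0.33 over tumor spots of section 1, from -0.03 to 0.22 over those of section 2, and from -0.15 to 0.18 over edge spots and from -0.06 to 0.13 over spots of neural tissue in both sections. The highest pair was *Psat1* with *Shmt2* in the tumor of section 1, at 0.33, where *Shmt2* also had r of 0.35 with the UMIs of the spot. Spots share a library and differ in depth, and most counts per spot were low, so these values are a description. Over all spots of the 4 regions, and among 11948 genes seen in at least 10% of spots, 3 of the 10 genes had a gene with r of at least 0.3 in both sections. For *Psat1* these included the myelin genes *Mag* and *Mobp*, with the lower r of the sections at 0.40 and 0.39. *Hspa5* was most like *S100a6*, *S100a11* and *Tagln2* (0.45, 0.43 and 0.43), and *Shmt2* like *Tnc*, *Lgals3* and *Tagln2* (0.32 each). *S100a6*, *Lgals3* and *Tagln2* are among the genes that defined the lesion, and *Mag* and *Mobp* among those that defined neural tissue.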

How the data were processed

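The counts deposited by the authors were unscaled UMIs for each gene in each spot, made with Space Ranger 2.1.1 on mm10 per the submitters' processing notes, and none of their later filtering, scaling or clustering is in these values. Spots with fewer than 500 UMIs or 10 genes were left out, with the thresholds of the study, which removed 91 spots of section 1 and 18 of section 2. The study filtered spots of a region of interest marked in each section. Here the filter was applied to all spots under tissue, which left 3315 and 3999, so neural tissue can include spots that the study set aside. The sections share 3096 barcodes, which name array positions and not cells.

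The lesion score was the log2 ratio of the summed UMIs of lesion genes to those of neural genes, with 1 added to each sum. It was split by Otsu's rule (256 bins) in each section. The classes were smoothed by a vote among neighbors, and the lesion was limited to the largest patch. Lesion-like and neural-like spots had median scores of 6.84 and -4.6 in section 1 and 4.75 and -4.17 in section 2, and 58 and 132 spots lay within 0.5 of the threshold. The 190 lesion-like spots left out in section 2 lay in other patches, whose cell types were not examined. Clustering placed 88.7% and 97.8% of spots in the same region.

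Summed counts of 8 libraries (1508094 to 39419219 UMIs) were fitted in edgeR 4.0.16 (R 4.3.3) with TMM factors, filterByExpr and section as a block, with 3 residual degrees of freedom. Regions of 1 section come from the same mouse, which pairs them, and leaving out the block raised the common dispersion from 0.0825 to 0.138. The log2 change within a section is that of CPM + 0.5. The change of the edge is the mean of the fitted log2 changes of its 2 sides. Those libraries come from adjoining spots of the same mouse but count as separate in the fit, so standard errors of the edge can be too small. P-values rest on 2 mice, and intervals cover counting error only. Alternatives were DESeq2 1.42.0, RLE factors, library size alone, no filter, no block, edge widths of 1 and 3 steps, clustered regions, neural tissue at 3 to 10 steps and a minimum of 1000 UMIs. The fit was tested on simulated data.

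The text names the 10 genes, the 3 called genes with the largest change between tumor and neural tissue in each pathway list, and up to 3 genes most like each of the 10 with r of at least 0.3, where values are log2 of counts per 10000 UMIs plus 1. The genes and lists were chosen with earlier results of these data known. Other genes are marked as chosen after their values were seen, or are given as members of a counted list. *Gcsh* and *Pdia6* of the lists were not analysed here. The RefSeq table gives no identifier to choose between the 2 *Ddit3* rows, so the first was used. Some genes that the naming rule or a counted list holds are not reported here by name.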

Additional observations from a re-analysis of the deposited data

How the results depend on the processing

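Regions of 1 mouse were paired through the section. Without that replicate block, 5 of the 10 genes were called between tumor and neural tissue (*Atf4* lost, 27.8% of all genes called), 3 between edge and neural tissue (13.3% of all genes), and 1435 of all genes between tumor and edge (7.53%). With neural tissue at 3 to 10 steps as the reference, 3 of the 10 genes were called in tumor (31.6% of all genes) and 0 at the edge by edgeR, where 924 genes were called in all (5.63%), and 1 between tumor and edge (13.4%). With an edge of 1 step, 3 were called at the edge (16.1% of all genes) and 1 between tumor and edge (11.8%). With clustered regions, 1 was called at the edge, among 2281 genes (12%), and 1 between tumor and edge (14.3%). DESeq2 called 4145 genes between tumor and edge (29.3%), 2 of them among the 10, and 241 between the sides of the edge (1.97%). Library size alone called 2 of the 10 between tumor and edge (11.1% of all genes). It moved the median of all genes to -0.44 for tumor against neural tissue, with 2350 genes higher and 5065 lower in place of 3586 and 3194, and to -0.22 for tumor against edge, with 280 and 1839 in place of 1190 and 1338. Scaling moves all genes of a comparison by about the same amount. Changes relative to the median for tumor against neural tissue therefore stay alike by construction (*Atf4* 0.69, *Hspa5* 1.43, *Asns* -0.69) and are no check. With library size alone *Atf4* itself was at 0.25 in that comparison and lost its call (adjusted p = 0.255, edgeR).

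The sign differed from that of the reported value in 50 of 616 recomputed single-gene values, 22 of them among 440 from tested settings, 15 of 44 in raw UMIs per spot, 5 of 44 as means over spots and 8 of 88 within 1 section. For tumor against neural tissue, *Ddit3* was -0.24 with library size alone, -0.07 with nearby neural tissue and -0.18 as a mean over spots, its second row -0.34, -0.06, -0.00, -0.03 and -0.40 (library size, edges of 1 and 3 steps, nearby tissue, mean over spots), and in raw UMIs per spot *Asns* was 1.13, *Psat1* 0.80, *Chac1* 1.35 and *Phgdh* 1.28. At the edge *Chac1* was -0.05 (3 steps), -0.25 (nearby tissue) and -0.40 (without section 1), and in raw UMIs *Asns* was 0.08, *Phgdh* 0.44 and *Psat1* 0.42. For tumor against edge, *Atf4* was -0.04 and *Hspa5* -0.03 with library size alone and -0.05 and -0.03 as means over spots, *Sesn2* -0.19, -0.06, -0.04 and -0.16 (library size, 1 step, nearby tissue, mean over spots), and without section 2 *Trib3* was -0.30, *Asns* 0.12 and *Phgdh* 0.12. In raw UMIs *Asns* was 1.05, *Phgdh* 0.84, *Ddit3* 0.57, its second row 0.49, *Psat1* 0.38 and *Chac1* 0.37. Between the sides, *Ddit3* was 0.00, 0.12, 0.09, 0.29, 0.40 and 0.08 (no filter, 1 step, 3 steps, clusters, raw UMIs, without section 2), *Psat1* 0.15 in raw UMIs, *Sesn2* -0.13 without section 1, *Chac1* -0.03, -0.16 and -0.07 (library size, 3 steps, clusters) and *Asns* -0.06, -0.27 and -0.06 (library size, clusters, without section 1). The remaining value, of the second *Ddit3* row in tumor against neural tissue without section 1, was -0.01. The cause of these changes was not tested. Leaving out a section leaves 1 library per region and no test, so no count was recomputed, and no called gene of the 10 changed sign within either section.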
